A study of Mus musculus and Homo sapiens with 12 samples.

Results

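Histone acyltransferases are the enzymes that move an acyl group from acyl-CoA to lysines of histones. EP300 and CREBBP are paralogous coactivators that acetylate many lysines, H3K18 among them, and can use longer acyl-CoAs such as butyryl-CoA. KAT2A and KAT2B are the catalytic subunits of SAGA and ATAC. KAT5, KAT6A, KAT6B, KAT7 and KAT8 are the MYST enzymes, and HAT1 acetylates newly made histone H4 at K5 and K12 before it enters chromatin. The 10 genes were taken by name and lie in a list of 20033 protein-coding genes of GENCODE in human and, as genes of the same name, in 21887 protein-coding genes of RefSeq in mouse. The data say where butyryl or acetyl marks were found at the genes of these enzymes, not what the enzymes do.

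The data are 12 CUT&Tag libraries, in which a transposase tethered to an antibody cuts and tags the DNA around a histone mark. CCD841 cells are an established line of normal colon origin, labelled epithelial. Its cells received 1 mM sodium butyrate (NaBu) for 12 to 16 h by the labels, with 2 replicates for H3K18bu and 2 for H4K12bu, and no untreated library was analysed here. The 8 mouse libraries came from the large intestine of male CETP-ApoB-100 transgenic mice. Those for H3K18bu and H4K12bu were from mice on a high fat, high sucrose diet supplemented with 5% arabinoxylan, a dietary fiber, and those for H3K18ac and H4K12ac are labelled with the high fat, high sucrose diet alone. Each mark had 2 mouse replicates, and acyl group and diet cannot be told apart. In such bulk tissue, fewer cells carrying a mark and less of the mark per cell cannot be told apart either.

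The authors deposited a list of MACS2 peaks for each library, with the fold over the local background and its −log10 p and q. Overlapping peaks of a library were merged to regions, and a region of both replicates is a merged stretch with a peak in each of them. The window of a gene is the gene with 5 kb on either side, and its start is the 5′ end of the gene in GENCODE, with 1 kb on either side counted as the start site. The pileup of a peak, the number of overlapping tags at its highest point, was recovered from the deposited fold and p. The CCD841 lists held 211088 and 229104 regions for H3K18bu and 207129 and 282656 for H4K12bu, with median pileups of 15, 12, 15 and 7. All peaks of the first 3 CCD841 lists had q below 0.05, against 56.3% of those in H4K12bu replicate 2. These 4 lists also end near the limit of 300000 peaks that the authors set, at 299296 to 299720, and so at different strengths. The weakest listed peak has a −log10 p of 5.31 and 4.56 for H3K18bu and of 4.81 and 2.97 for H4K12bu, so that weaker peaks enter the comparison from H4K12bu replicate 2 than from the other lists. The mouse Kac lists held 297745 to 299480 regions and the mouse Kbu lists only 50645 to 96332, and 89.2% to 91.4% of the mouse Kbu peaks had a pileup of 1, against 12.8% to 72.1% of the Kac peaks. The Kac lists end near the same limit, and their peaks of pileup 1 are not spread over the genome. In H3K18ac replicate 1 they are listed on all 19 autosomes, in H3K18ac replicate 2 on chr1 and chr10 to chr14 only, in H4K12ac replicate 1 on chr1 and chr10 to chr13 only, and in H4K12ac replicate 2 on chr1 only. On those chromosomes they make up 65.9% to 81.7% of the peaks, and elsewhere none. The Kbu lists hold them on every chromosome. Of the 10 genes, Kat2a and Kat7 (chr11) lie where 3 of the 4 Kac lists hold such peaks, Kat6b (chr14) where 2 do, and the other 7 where 1 does. Mouse counts over all listed peaks, all-gene shares included, carry this difference between chromosomes, and the main ones are followed by those with a pileup of at least 2. In the CCD841 lists the lowest pileup was the same on all 22 autosomes of a library. The CCD841 lists are therefore described gene by gene, and the mouse lists mainly by which libraries agree. Nothing in the labels says that the CCD841 replicates are separate cultures or that the mouse replicates, or the libraries of different marks, are from separate mice, so that errors and p-values measure only the spread between these libraries.

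The labelled cell type was compared with marker lists. In CCD841 cells 1 of 10 colon epithelial genes (VIL1) carried an H3K18bu region of both replicates at its start, against 31.3% of all protein-coding genes, and 2 of 10 (KRT8 and KRT18) an H4K12bu region, against 14.7%, while EPCAM, CDH1 and CDX2 had neither. In their windows, 7 of the 10 epithelial genes had an H3K18bu region of both replicates and 6 an H4K12bu region, with medians of 7.48 and 2.09 per 100 kb, against 5.15 for each mark at the fibroblast genes and 3.73 and 4.68 over all genes. The medians for H3K18bu and H4K12bu were 9.61 and 11.0 at the smooth muscle genes and 5.75 and 0.775 at the immune genes. Of 10 fibroblast genes, COL1A2, COL6A3 and FN1 carried H3K18bu and COL1A2 H4K12bu at the start. Of 6 smooth muscle genes, ACTA2 and LMOD1 carried both marks, and so did the immune genes CSF1R and CD79A. In mouse, 7 epithelial genes have a placed start, and 3 of them (Krt8, Vil1 and Cdx2) carried H3K18bu there, against 7.02% of the 17492 genes with a placed start, and none H4K12bu, against 16.7%. With a pileup of at least 2, only Cdx2 was left, against 0.915%. None of the 6 fibroblast, 4 smooth muscle and 4 immune genes with a placed start carried either Kbu mark at it, and 2 fibroblast genes had 1 H4K12bu region each of both replicates in the window. The part of cell type in the values below was not tested.

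H3K18bu lay at the start of 4 of the 10 genes in both CCD841 replicates, EP300, KAT5, KAT6A and KAT7, against 31.3% of all protein-coding genes. H4K12bu lay at the start of 2, EP300 and KAT5, against 14.7% of all genes. For KAT6B and KAT8 the GENCODE gene begins upstream of its canonical transcript, by 1673 bp in KAT6B and 3175 bp in KAT8, and both carried H3K18bu at that later start. Counted from the canonical start, H3K18bu was present in both replicates at 6 of the 10 genes, against 32.8% of all genes, and H4K12bu at 3 (EP300, KAT5 and KAT6B), against 14.9%. CREBBP, KAT2A, KAT2B and HAT1 carried neither mark at the start in both replicates.

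The sequences under these start-site regions are shown for EP300, KAT5, KAT7 and KAT6B, 4 of the 6 genes with H3K18bu at the canonical start, to set the marked sequence beside its values. Those of KAT6A and KAT8 are not shown. All 4 windows hold the GC box, bound by SP and KLF factors, and all but that of KAT5 the CCAAT box, bound by NF-Y. They were read from GRCh38 on the plus strand, the strand of each of these genes, around the H3K18bu summit of replicate 1 and without bases of annotated untranslated regions. For KAT5 the window at that summit is untranslated throughout, so the longest other stretch of the region is given. Capitals mark matches on either strand. The motifs searched were the GC box, spelled GGGCGG, the CCAAT box, spelled as named, and the core of the ETS site, spelled CCGGAA. The others were the E-box of MYC and USF factors, spelled CACGTG, the AP-1 site, spelled TGACTCA, and the cAMP response element, spelled TGACGTCA. None of these contains another.
EP300, chr22:41091552-41091752: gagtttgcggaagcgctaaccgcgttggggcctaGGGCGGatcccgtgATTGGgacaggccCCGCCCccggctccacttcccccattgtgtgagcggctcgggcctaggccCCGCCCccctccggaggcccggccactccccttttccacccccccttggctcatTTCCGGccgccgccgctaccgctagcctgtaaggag
KAT5, chr11:65712537-65712619: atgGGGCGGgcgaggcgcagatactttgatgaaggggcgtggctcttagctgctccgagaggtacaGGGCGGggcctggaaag
KAT7, chr17:49789133-49789311: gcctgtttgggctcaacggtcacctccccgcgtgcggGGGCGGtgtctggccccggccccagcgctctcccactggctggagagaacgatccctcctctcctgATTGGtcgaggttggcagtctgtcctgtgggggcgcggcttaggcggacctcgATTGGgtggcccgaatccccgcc
KAT6B, chr10:74826171-74826371: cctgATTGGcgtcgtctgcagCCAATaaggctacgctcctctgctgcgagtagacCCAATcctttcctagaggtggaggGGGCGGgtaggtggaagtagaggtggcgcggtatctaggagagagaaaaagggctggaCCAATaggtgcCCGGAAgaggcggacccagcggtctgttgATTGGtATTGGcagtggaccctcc
The EP300 window held 3 GC boxes, 1 CCAAT box and 1 ETS core, with 70.6% GC and 18 CpG in 201 bases. The KAT6B window held 6 CCAAT boxes, 1 GC box and 1 ETS core, with 58.7% GC and 10 CpG. KAT7 held 1 GC box and 2 CCAAT boxes in 179 bases, and KAT5 2 GC boxes in 83 bases, where 51.4% and 34.7% of start-site windows of those lengths hold a GC box. The windows behind these shares are centred on the replicate 1 summit and keep untranslated bases. The KAT7 window is cut short at such bases and the KAT5 stretch lies off its summit, so the shares are only a rough comparison. Of 6074 windows of 201 bases at H3K18bu regions of both replicates within 1 kb of a protein-coding start, 53.6% held a GC box, 25.1% a CCAAT box and 16.3% an ETS core. Of all 108536 H3K18bu regions of both replicates, 8.64%, 20.9% and 2.95% did. A GC box in a start-site window is thus common, and a match is a description of the sequence only.

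EP300 (ENSG00000100393.15, chr22:41092592-41180077, plus strand) carried both marks just upstream of its start. The H3K18bu peaks spanned chr22:41091203-41091858 in replicate 1 and chr22:41091175-41092137 in replicate 2, with summits at -940 and -788 bp from the start, upstream of it. Their pileups were 19 and 16, at 8.13-fold and 7.98-fold over background and −log10 q of 12.1 and 10.4. The H4K12bu peaks lay over the same stretch, with summits at -1044 and -959 bp, pileups of 12 and 8 and folds of 5.11 and 5.03. All 4 CCD841 libraries thus listed a peak there, which was true at the 5′ end of only 1 other gene of the 10, KAT5. This stretch was the strongest H3K18bu region of EP300, by the lower −log10 p of its replicates.

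KAT5 (TIP60; ENSG00000172977.13, chr11:65711996-65719604, plus strand), the catalytic subunit of NuA4, carried both marks downstream of its start. The H3K18bu summits lay 730 and 483 bp into the gene, with a pileup of 15 in each replicate and folds of 6.65 and 7.28. The H4K12bu summits lay 601 and 729 bp into the gene, with pileups of 13 and 6. The peak of H4K12bu replicate 2 had a −log10 q of only 1.20, and the KAT5 start is lost for that mark when q below 0.05 is asked of each peak. The H3K18bu region of both replicates, chr11:65712148-65712916, begins upstream of the canonical start and takes in coding exons 1 and 2 with the intron between them.

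KAT7 (HBO1; ENSG00000136504.15, chr17:49788624-49835026, plus strand) and KAT6A (MOZ; ENSG00000083168.11, chr8:41929479-42051994, minus strand) carried H3K18bu at the start but not H4K12bu in both replicates. At KAT7 the H3K18bu pileups were 12 and 9, with summits 609 and 406 bp into the gene in intron 1. The region also lies within 1 kb of the start of FAM117A, so that it cannot be given to KAT7 alone. H4K12bu was listed there in replicate 2 only, with a pileup of 5 and a −log10 q of 1.25. At KAT6A the H3K18bu pileups were 11 and 8, with summits at -182 and -281 bp from the start, and no H4K12bu peak was listed.

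KAT6B (MORF; ENSG00000156650.14, chr10:74824927-75032624, plus strand) had the highest pileups at a canonical start among the 10 genes in both marks, while by fold the H3K18bu peaks of EP300 were higher. The H3K18bu region chr10:74826099-74826701 reaches its non-coding exon 1, with pileups of 27 and 22 and folds of 7.70 and 6.59. H4K12bu lay over the same stretch with pileups of 14 and 12. KAT8 (MOF; ENSG00000103510.20, chr16:31114489-31131393, plus strand) carried H3K18bu at its canonical start, with pileups of 13 and 12 in the region chr16:31117473-31117734, and no H4K12bu peak within 1 kb. CREBBP and KAT2A had a start-site H3K18bu peak in replicate 2 only, with pileups of 12 and 8. KAT2B and HAT1 had none within 1 kb of the start in any of the 4 libraries.

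**Figure D1:**
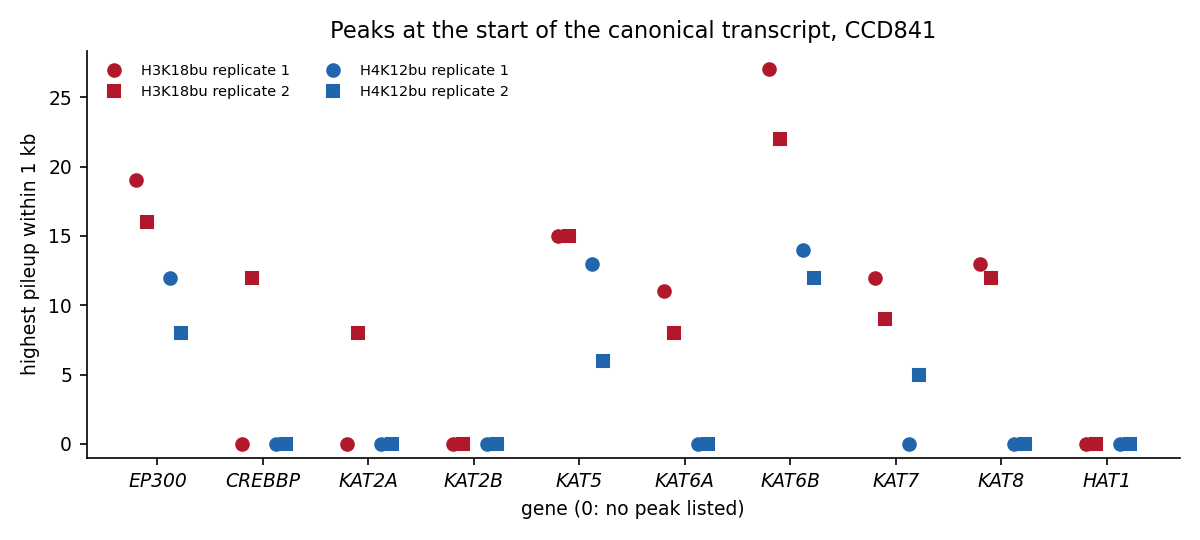
Highest peak pileup (tags at the summit) within 1 kb of the start of the canonical transcript for each gene, by CCD841 library, with circles for replicate 1, squares for replicate 2, red for H3K18bu and blue for H4K12bu, and 0 where no peak is listed. EP300, KAT5 and KAT6B have points above 0 in all 4 libraries, and KAT2B and HAT1 in none.

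With the starts included, the CCD841 windows of the 10 genes, 928 kb together, held 50 H3K18bu and 80 H4K12bu regions of both replicates. This is 5.39 per 100 kb for H3K18bu, against 4.78 over the windows of all protein-coding genes, and 8.62 per 100 kb for H4K12bu, against 5.15. A limit of q below 0.01 removes peaks from H4K12bu replicate 2 only, of which it keeps 25.0%, since all peaks of the other 3 lists pass it. H4K12bu regions of both replicates then fell to 4.63 per 100 kb, against 2.25 over all genes, beside the 5.39 of H3K18bu that the limit could not change. The median gene among the 10 had 5.25 H3K18bu regions per 100 kb against 3.73 over all genes, and 7.35 H4K12bu regions against 4.68. By replicate, H4K12bu reached 18.3 and 21.9 per 100 kb at the 10 genes, above the 9.59 and 11.6 of H3K18bu, and over all genes it reached 11.6 and 14, above 9.18 and 10.1. All 10 genes had at least 1 H3K18bu region of both replicates, against 70% of all genes, and 9 had an H4K12bu region, against 71.2%. Their windows are longer, with a median of 84.4 kb against 37.5 kb over all genes, so that these last counts are not comparable gene for gene.

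EP300 and CREBBP had more H4K12bu than H3K18bu regions in each replicate of the lists as deposited. EP300 had 3 and 5 H3K18bu regions in replicates 1 and 2, and 21 and 27 H4K12bu regions. Of these, 3 and 14 were found in both replicates, and the 14.4 H4K12bu regions per 100 kb lie above the density of 91.2% of protein-coding genes, while the 3.08 of H3K18bu lie above 45.0%. CREBBP (ENSG00000005339.15, chr16:3725054-3880713, minus strand) had 12 and 24 H3K18bu regions and 43 and 47 H4K12bu regions. In both replicates these were 8 and 18, or 4.83 and 10.9 per 100 kb, the latter above 82.0% of genes. Of the CREBBP H4K12bu regions 10 of 18 lie in the last 25% of the gene, and 2 in the first 25%. Of these 10, chr16:3734224-3734296 and chr16:3734412-3735374 pass q below 0.01 in replicate 2. The others have −log10 q of 0.936 to 1.98 there, so that most of the 10 are lost at that limit. Those from chr16:3729876 to chr16:3735685 lie close together, with replicate 1 folds of 2.23 to 3.29. Their replicate 1 background is 11.2 to 12.9, against 3.56 to 8.32 at the other H4K12bu regions of CREBBP. Shares by part of the gene were not worked out over all genes, so this placing is not called particular to CREBBP. Of the 14 H4K12bu regions of EP300, 4 lie in the last 25%, 1 in the first 25%, 1 upstream and 1 downstream of the gene. With q below 0.01 asked of each peak, replicate 2 of H4K12bu kept 9 regions in EP300 and 13 in CREBBP, the latter fewer than the 24 of H3K18bu replicate 2. Regions of both replicates were then 7 for H4K12bu against 3 for H3K18bu in EP300, and 8 for each mark in CREBBP. In each gene 4 of the H4K12bu regions as deposited touch coding exons. Those of EP300 are exons 2, 14, 19 and 31 and those of CREBBP exons 5, 14, 24 and 30 of the canonical transcripts. Of these, only exon 19 of EP300 and exons 5 and 14 of CREBBP are left with q below 0.01. The EP300 region at exon 19, chr22:41158060-41158800, had H4K12bu pileups of 27 and 11 and no H3K18bu region of both replicates.

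HAT1 (ENSG00000128708.13, chr2:171922448-171983686, plus strand) also had more H4K12bu than H3K18bu regions. It had 3 and 3 H3K18bu regions and 17 and 16 H4K12bu regions, of which 2 and 5 were found in both replicates, or 2 and 2 with q below 0.01. Its strongest H3K18bu region, chr2:171952946-171953369, reaches coding exon 4 with pileups of 20 and 19. Only 77.4% of the 31-base words of that region occur once in the genome. The 5 H4K12bu regions lie between 15.6 and 50.1 kb from the start, and no H4K12bu peak was listed at the start itself.

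KAT2B (PCAF; ENSG00000114166.8, chr3:20040446-20154404, plus strand) and KAT2A (GCN5; ENSG00000108773.11, chr17:42113111-42121367, minus strand) differed from each other. KAT2B had 16 H3K18bu regions in each replicate, 8 of them shared, and 19 and 24 H4K12bu regions, 9 of them shared. With q below 0.01 asked of each peak, H4K12bu kept 19 and 8 regions there, 6 of them shared, and H3K18bu was unchanged. All 8 H3K18bu regions of both replicates were intronic, and 6 of them lay in intron 1, between 9.11 and 24.8 kb from the start. The highest H3K18bu pileup of KAT2B in replicate 1, 37, was in a region of only 74 bp, chr3:20049524-20049597, which had a pileup of 15 in replicate 2. H4K12bu had a region with the same ends, with pileups of 23 and 15. Peaks of 73 bp are the shortest in every list, and all 31-base words of that region occur once in the genome. KAT2A had 2 and 3 H3K18bu regions and 4 and 1 H4K12bu regions, the latter 4 and 0 with q below 0.01. Its 2 shared H3K18bu regions lie beyond the 3′ end of the gene, 1 of them at the start of DHX58, and no H4K12bu region was shared.

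KAT6B held the most regions of both replicates for either mark. It had 33 and 41 H3K18bu regions and 34 and 43 H4K12bu regions, of which 18 and 19 were shared. With q below 0.01 H4K12bu kept 34 and 18 regions, 11 of them shared. As deposited, the shared regions of the 2 marks came to 8.27 and 8.73 per 100 kb, densities above those of 78.8% and 73.5% of protein-coding genes. Intron 3 alone held 13 of the 18 H3K18bu regions. The strongest region of both marks, by the lower −log10 p of the replicates, was in intron 13, with H3K18bu at chr10:75012375-75013225 and H4K12bu at chr10:75012096-75013210. There H3K18bu reached pileups of 31 and 26, H4K12bu reached 29 and 19, and all 4 summits lay between positions 75012597 and 75012606. The 201 bases around the H3K18bu summit are shown because this was the strongest region of KAT6B in both marks.
KAT6B intron 13, chr10:75012497-75012697: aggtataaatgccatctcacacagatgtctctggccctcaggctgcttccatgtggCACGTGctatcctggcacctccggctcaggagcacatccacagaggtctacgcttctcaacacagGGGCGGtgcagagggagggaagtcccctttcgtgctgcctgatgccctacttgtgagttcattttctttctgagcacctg
The window has 55.7% GC and 5 CpG, where the median over all H3K18bu regions of both replicates is 51.7% GC and 2 CpG. It holds 1 GC box and 1 E-box, and an E-box is in 2.90% of those windows.

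The remaining MYST genes had fewer regions. KAT6A had 14 and 9 H3K18bu regions and 18 and 22 H4K12bu regions, with 5 and 8 shared, and 18 and 5 H4K12bu regions with 4 shared at q below 0.01. Its longest, the H4K12bu region chr8:41932227-41934055, covers 1829 bp at coding exon 17, the last exon. KAT7 had 3 and 4 H3K18bu regions, of which only the start-site region was shared, and 8 and 15 H4K12bu regions with 3 shared, none at the start. At q below 0.01 its H4K12bu regions were 8 and 3, with 3 shared, and its H3K18bu regions were unchanged. KAT8 had 2 H3K18bu regions in each replicate, both shared, and 4 and 6 H4K12bu regions with 2 shared, or 1 at q below 0.01. Both shared H4K12bu regions lie in the flanks of KAT8, outside the gene itself. The stronger H4K12bu region, chr16:31111184-31112673, lies 2.56 kb upstream of the 5′ end of KAT8 with pileups of 32 and 18. Neither is within 1 kb of the start of another protein-coding gene, and overlap with the bodies of other genes was not looked at. KAT5 had 1 H3K18bu and 2 H4K12bu regions in each replicate, all of them shared, and the second H4K12bu region, with pileups of 22 and 8, lies over coding exons 9 and 10 and is the 1 shared at q below 0.01.

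**Figure D2:**
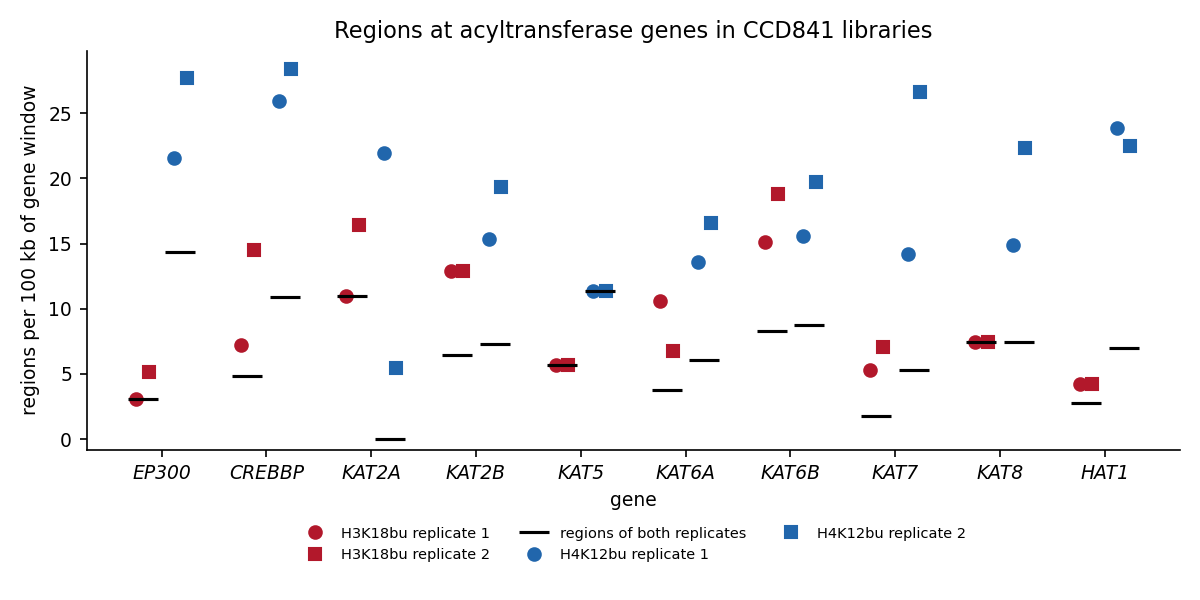
Regions per 100 kb of gene window in each CCD841 library, with circles for replicate 1, squares for replicate 2, red for H3K18bu and blue for H4K12bu, and black bars for regions of both replicates. The H4K12bu points lie above the H3K18bu points at 8 genes and overlap with them at KAT2A and KAT6B.

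The marks were compared gene by gene as the number of regions in a window per 100000 regions of the library, since the lists differ in length. H4K12bu was above H3K18bu in every pairing of libraries for 8 of the 10 genes, against 43.9% of 19006 genes with a region, and below for none, against 21.0%. EP300 had 1.42 and 2.18 for H3K18bu and 10.1 and 9.55 for H4K12bu. HAT1 had 1.42 and 1.31 against 8.21 and 5.66, and CREBBP 5.68 and 10.5 against 20.8 and 16.6. The ratio of the H4K12bu mean to the H3K18bu mean was 5.46 at EP300, 5.08 at HAT1, 2.90 at KAT7 and 2.31 at CREBBP. KAT8, KAT5, KAT6A and KAT2B followed with ratios of 2.23, 1.84, 1.56 and 1.21. KAT6B, at 15.6 and 17.9 against 16.4 and 15.2, and KAT2A, at 0.947 and 1.31 against 1.93 and 0.354, overlapped. For KAT5, KAT8 and KAT2A these values rest on 1 to 6 regions per library. The median ratio was 2.03 for the 10 genes and 1.38 for all genes. An exact permutation test of 2 libraries against 2 allows no p below 0.333, so that none was made. With the same number of strongest regions taken from each library, H4K12bu was above H3K18bu for 5 of the 10 genes, against 36.3% of all genes. The windows of the 10 genes are longer than those of all genes, with medians of 84.4 and 37.5 kb. The shares of genes above or below and the median ratios are therefore not comparable gene for gene.

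**Figure D3:**
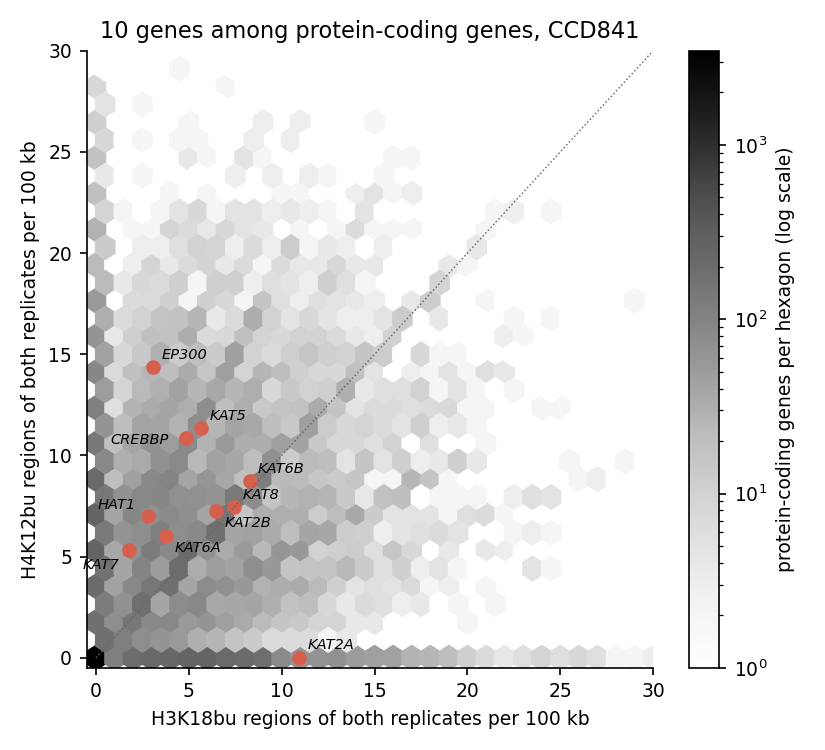
Regions of both replicates per 100 kb of gene window, H3K18bu on the horizontal and H4K12bu on the vertical axis, with all protein-coding genes as grey hexagons and the 10 genes in red; the dotted line marks equal values, and 71 genes beyond 30 on an axis are not drawn. EP300 lies farthest above the line at 3.08 and 14.4, KAT6B and KAT8 near it, and KAT2A at 0 for H4K12bu.

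The place of the regions within the genes was like that over all genes. Of the 50 H3K18bu regions 4 were at the start, 6 in exons, 36 in introns and 4 in the flanks, or 8%, 12.0%, 72.0% and 8%. Over all protein-coding genes the shares were 9.23%, 8.97%, 71.4% and 10.4%. Of the 80 H4K12bu regions 2 were at the start, 15 in exons, 57 in introns and 6 in the flanks, and the exonic share of 18.8% compares with 14.9% over all genes. The marks overlapped in part, with 22 of 50 H3K18bu regions (44%) touching an H4K12bu region and 23 of 80 H4K12bu regions (28.8%) touching an H3K18bu region. Over the windows of all protein-coding genes the shares were 40.8% and 38.4%. KAT6B gave 8 of these 22 H3K18bu regions, CREBBP 4, KAT2B and KAT6A 3 each and EP300 2. KAT7, KAT8 and KAT2A gave none. All 31-base words occurred once in the genome for 29 of the 50 H3K18bu and 45 of the 80 H4K12bu regions, and fewer than 50% of them did so for 2 and 3 regions, all intronic.

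**Figure D4:**
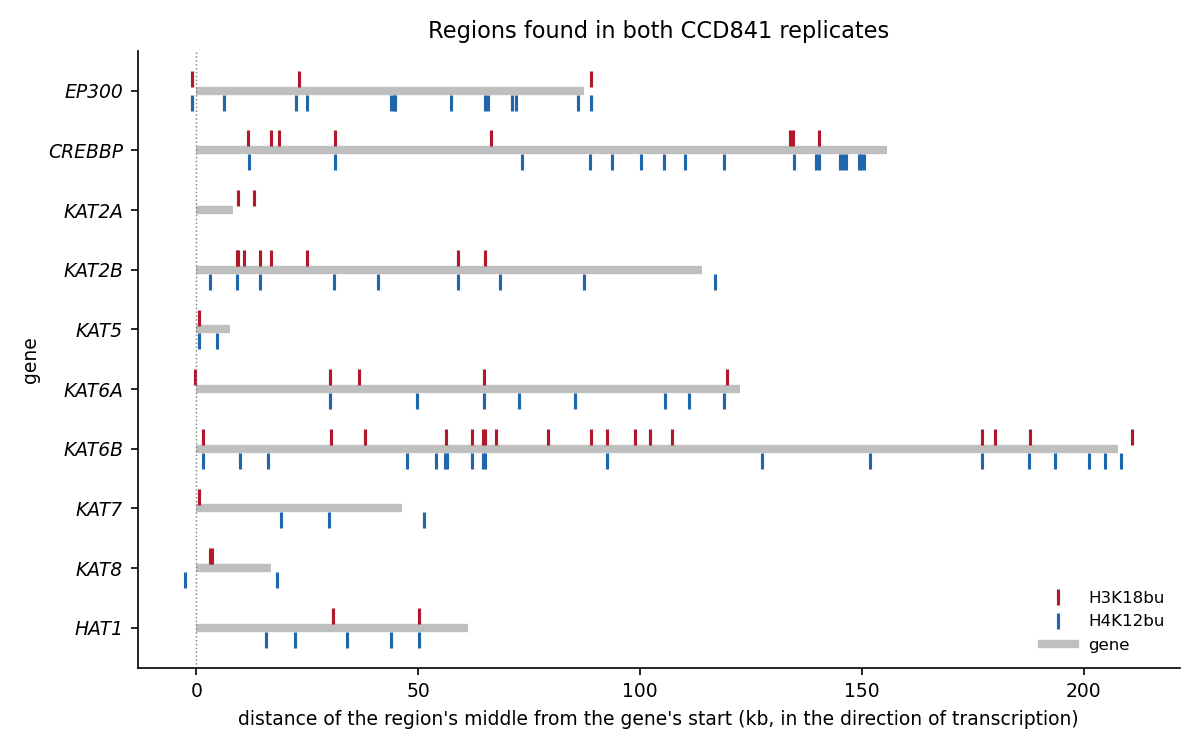
Position of each region of both CCD841 replicates along the 10 genes, as the distance of its middle from the gene's 5′ end in kb, with H3K18bu above (red) and H4K12bu below (blue) the grey gene. The H4K12bu regions of CREBBP as deposited gather toward its 3′ end, with 10 of 18 in the last 25% of the gene. Most of these 10 do not pass q below 0.01 in replicate 2, and the same share over all genes was not worked out. KAT6B has the most H3K18bu regions, 18.

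The 49 partner genes, subunits of the complexes these enzymes work in and other acetyltransferases, were all found in the human annotation. H3K18bu lay at the start of 14 of them in both replicates (28.6%, against 31.3% of all genes) and H4K12bu at the start of 6 (12.2%, against 14.7%), shares near those of all genes. For MSL and NSL, the complexes of KAT8, 4 of 8 genes had H3K18bu at the start (MSL2, KANSL1, KANSL2 and PHF20), and for NuA4 2 of 9 (EP400 and EPC2). SAGA and ATAC had 3 of 11 (TADA3, SUPT20H and SUPT3H), and the MOZ, MORF and HBO1 scaffolds 2 of 9 (BRPF1 and BRPF3). The densest in H3K18bu were JADE2 with 20.3 regions of both replicates per 100 kb, BRPF1 with 19.0 and NCOA2 with 8.22. The densest in H4K12bu were DMAP1 with 29.0, NAT10 with 25.0 and BRD1 with 21.7. No H3K18bu region of both replicates was found in the windows of 12 partner genes, DMAP1, BRD8, TADA2B, TAF6L and SUPT7L among them, and no H4K12bu region in that of 1, ESCO2. The median density of the partner genes was 2.56 per 100 kb for H3K18bu, against 3.73 over all genes, and 7.68 for H4K12bu, against 4.68. In mouse, 47 of the 49 were found, 40 of them with a placed start. A region of both replicates lay at the start of 3 of the 40 for H3K18bu (7.5%, against 7.02% of the genes with a placed start), 15 for H4K12bu (37.5%, against 16.7%), 20 for H3K18ac (50%, against 23.8%) and 14 for H4K12ac (35%, against 27.6%). With a pileup of at least 2 these were 0 (against 0.915%), 4 (10%, against 4.41%), 14 (35%, against 17.9%) and 13 (32.5%, against 26.5%).

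In mouse large intestine the Kbu lists held little that both replicates shared at these genes. An H3K18bu region of both replicates was in the window of 1 of the 10 genes, against 17.7% of all genes, and an H4K12bu region in the windows of 2, against 29.7%. H3K18ac gave 6 (Ep300, Crebbp, Kat2a, Kat2b, Kat6b and Kat7), against 52.2%. H4K12ac gave these 6 with Kat6a and Kat8, or 8 in all, against 55.1%. At a start, which could be placed for 9 of the 10 genes (Kat6a was not placed), H3K18bu was found at none, against 7.02% of genes with a placed start, and H4K12bu at 1 (Kat5), against 16.7%. H3K18ac was found at 1 (Ep300), against 23.8%, and H4K12ac at 3 (Ep300, Crebbp and Kat6b), against 27.6%. With a pileup of at least 2 the Kac genes at a start were the same, against 17.9% and 26.5%, and Kat5 was lost for H4K12bu, against 4.41%. A pileup of 1 lay under 12 of the 14 H3K18bu peaks in these windows in replicate 1 and under 19 of the 20 in replicate 2. For H4K12bu it lay under 20 of 22 and 39 of 45. The Kac lists were weak too, with a pileup of 1 under 107 of 138 and 111 of 163 H3K18ac peaks and under 13 of 83 and 0 of 158 H4K12ac peaks. All 111 of H3K18ac replicate 2 are in the windows of Kat6b (87), Kat7 (16) and Kat2a (8), and all 13 of H4K12ac replicate 1 in that of Kat7, while Kat2a, also on chr11, has none there. The members on the other chromosomes have none in these lists. With a pileup of at least 2 asked of each peak, H3K18ac regions of both replicates were left at 3 genes (Ep300, Crebbp and Kat2b), against 39.7% of all genes, and H4K12ac regions at the same 8 genes without Kat7, against 52.2%. H3K18bu was then left at none, against 3.31%, and H4K12bu at 1 (Crebbp), against 7.24%. Of the 19 H3K18ac regions of both replicates 16 had a pileup of 1 in a replicate, and 1 of the 19 and 1 of the 24 H4K12ac regions had q below 0.05 in both. When q below 0.05 was asked of each peak, 1 of the 10 genes was left for H3K18ac, against 14% of genes, 1 for H4K12ac, against 14.7%, and none for the Kbu marks, against 0.443% for H3K18bu and 1.49% for H4K12bu. At a pileup of 1 the counting error is as large as the value. The mouse windows of the 10 genes are also longer than those of all genes, with medians of 69.1 and 27.2 kb.

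Ep300 (chr15:81586209-81652077 in GRCm38, plus strand) carried both acetyl marks upstream of its start in the lists of both replicates. H3K18ac peaks had summits at -647 and -821 bp from the start with a pileup of 4 in each replicate and −log10 q of 3.49 and 2.24. H4K12ac peaks lay over them with pileups of 2 and 3 and −log10 q of only 0.693 and 1.25, neither of them below a q of 0.05. No H3K18bu peak was listed in the whole window in either replicate, and H4K12bu gave 2 peaks of pileup 1 in replicate 2 only. The human EP300 Kbu peaks and the mouse Ep300 Kac peaks thus both lay upstream of the gene, in different species, tissues and marks.

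Crebbp (chr16:4081334-4213957, minus strand) had 1 region of both replicates for each Kbu mark. Both lie beyond its 3′ end, at chr16:4077603-4077968 for H3K18bu and chr16:4077399-4077975 for H4K12bu, within 1 kb of the start of Trap1, and H4K12ac was found there too. H3K18bu had pileups of 3 and 1 there, H4K12bu of 2 and 4, and H4K12ac of 5 and 7. At the Crebbp start H4K12ac had pileups of 2 and 5. Kat5 (chr19:5603014-5611556, minus strand) carried the only Kbu region of both replicates at a start among the 10 genes, H4K12bu at chr19:5609384-5609721 with pileups of 1 and 2. The Kat5 peaks had −log10 q of only 0.129 and 0.584, and the region is lost with a pileup of at least 2. Its counterpart KAT5 was among the genes with H4K12bu at the start in CCD841 cells, where it is lost with q below 0.05. Kat6b (chr14:21499216-21672478, plus strand) had 12 H3K18ac regions of both replicates, each with a pileup of 1 in at least 1 replicate, and 87 of its 93 peaks in H3K18ac replicate 2 had a pileup of 1. Such peaks are listed on chr14 in both H3K18ac lists and in neither H4K12ac list, and with a pileup of at least 2 Kat6b had 7 and 6 H3K18ac regions, none of them shared, and 6 H4K12ac regions of both replicates. It had no Kbu region of both replicates. Hat1 (chr2:71389260-71441622, plus strand) had no H3K18bu peak in either replicate and no region of both replicates for any of the 4 marks.

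Kbu and Kac libraries were compared by the regions at a gene per 100000 regions of the library. None of the 10 genes had 4 Kbu libraries all above the 4 Kac libraries, against 11.1% of 20565 genes with a region, or all below, against 3.86%. The shares differed between chromosomes. On chr1, where all 4 Kac lists hold peaks of pileup 1, Kbu was above at 8.37% and below at 17.0% of 1183 genes, and on the 13 chromosomes where 1 Kac list does, home to 7 of the 10 genes, at 12.7% and 1.28% of 13775. This direction over all genes also turned with the peaks kept. With a pileup of at least 2, Kbu was above Kac at 1.98% of genes and below at 25.4%, with 24.5% below on chr1 and 25.8% on the 13 chromosomes, and 2 of the 10 genes, Ep300 and Kat2a, were below. Both were then at 0 in all 4 Kbu libraries, with 1.21 to 3.86 in the Kac libraries for Ep300 and 1.40 to 3.64 for Kat2a, but 1 region is worth 9.67 to 22.9 in a Kbu library at that limit, so that a 0 there does not show a lower share. With q below 0.05 it was above at 0.167% and below at 10.4%, with none of the 10 in either direction. Over all listed peaks, Ep300 was at 0, 0, 0 and 2.08 in the Kbu libraries (H3K18bu replicates 1 and 2, then H4K12bu) and at 3.35, 1.68, 1.00 and 3.36 in the Kac libraries (H3K18ac, then H4K12ac). Its means were 0.519 ± 1.04 and 2.35 ± 1.20 (SD, n = 4 each), with p = 0.0857 in the two-sided exact permutation test and 0.356 after Benjamini-Hochberg adjustment over all genes. Hat1 was at 0, 0, 0 and 1.04 in the Kbu libraries and at 1.67, 0.335, 1.00 and 3.02 in the Kac libraries, with the same p of 0.0857 by the exact permutation test. For both genes 3 of 4 Kbu libraries lay below all Kac libraries, and the remaining one lay among them. A single region is worth 1.04 to 1.97 in a Kbu library and 0.334 to 0.336 in a Kac library, so that the 0 values of the Kbu libraries do not show a lower share. Kat6b ranged from 6.58 to 13.8 in Kbu and from 4.01 to 31.2 in Kac, and Crebbp from 1.65 to 11.8 and from 2.01 to 10.1. Kat2b ranged from 4.94 to 13.8 and from 4.34 to 12.4. Over the other 5 genes the exact permutation p lay between 0.143 for Kat7 and 0.714 for Kat2a. Over all genes the exact test called 0 genes at an adjusted p below 0.05, with a smallest adjusted p of 0.191, and 3070 at an unadjusted p below 0.05, all at 0.0286, the smallest p that 70 assignments allow.

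**Figure D5:**
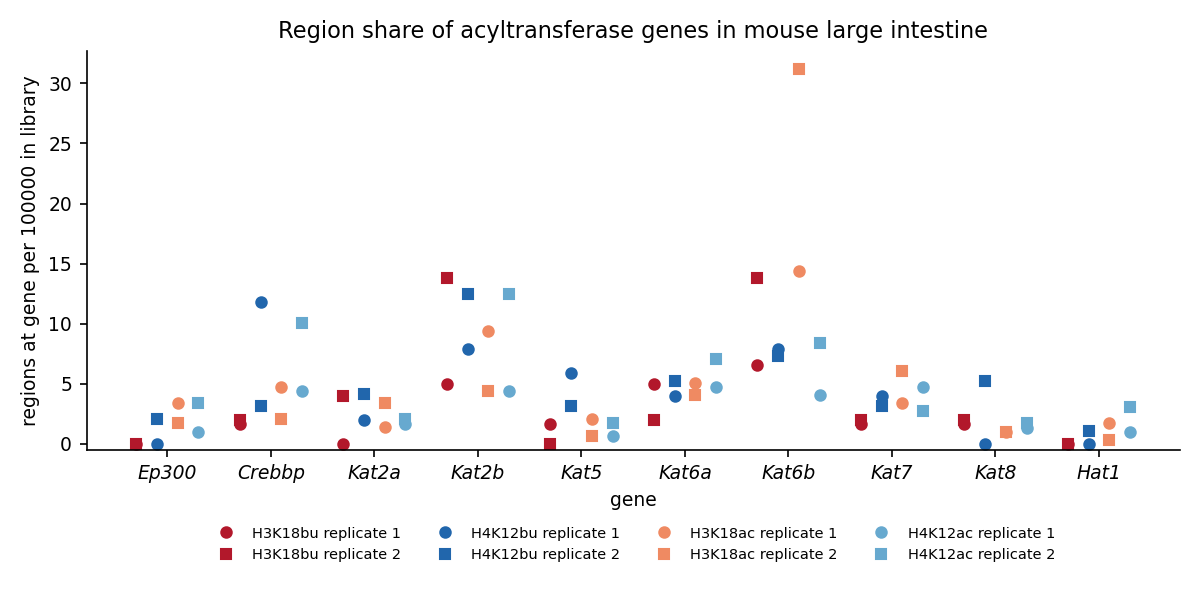
Regions in the window of each gene per 100000 regions of the library in the 8 mouse libraries, with circles for replicate 1, squares for replicate 2, dark red and dark blue for H3K18bu and H4K12bu, and orange and light blue for H3K18ac and H4K12ac, all listed peaks counted. Kbu and Kac points overlap at every gene, and Ep300 and Hat1 have 3 Kbu points at 0.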

How the data were processed

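The authors aligned the CUT&Tag reads to hg38 or mm10 and called peaks in each library, with no control library, at a MACS2 p threshold of 0.01 and at most 300000 peaks. The submitters' processing notes name Bowtie2 2.3.1, MACS2 2.1.0, cutadapt 1.9.1 and bcl2fastq 2.17.1. The deposited lists give each peak's fold over background, and the deposited −log10 p and −log10 q values. The lists hold no read counts, so the depth of a library is unknown, and only listed peaks could be compared. The pileup of each peak was solved from its fold and Poisson p, to a tolerance of 0.01, for 100% of peaks in each list. Peaks were merged to regions, and regions of both replicates overlapped by at least 1 bp. Genes came from GENCODE 44 (GRCh38) and RefSeq (GRCm38). Mouse starts were read from RefSeq promoters, and mouse exons and sequence were not used here. Mouse Kbu and Kac libraries were compared per gene by an exact permutation test over 70 assignments, adjusted by Benjamini-Hochberg, after the procedure was tested on simulated data. All 10 genes were named, and of the partner genes, by mark, the 3 with the highest density and up to 5 with none. The genes and lists were chosen with earlier results of these data known. The result for 1 marker gene is not reported here. Python 3.11.15, pandas 2.3.3 and scipy 1.17.1 were used.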

Additional observations from a re-analysis of the deposited data

How the results depend on the processing

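The counts of regions depend on the peaks kept, most of all in mouse. The number of the 10 genes with H4K12bu at the start in both CCD841 replicates was 1 with peaks of q below 0.05, with q below 0.01, with the same number of strongest regions per library and with an overlap of at least 50% of the shorter region. Over all genes the shares were 11.0%, 6.42%, 12.7% and 14.2% in that order. It was 5 with a start window of 3 kb, against 22.4% of genes, and 4 with the start of any protein-coding transcript, against 24.5%. The density at the 10 genes was 4.63 per 100 kb for H4K12bu with q below 0.01, a limit that removes peaks of H4K12bu replicate 2 only, and 9.38 for H3K18bu and 14.6 for H4K12bu when the listed peaks that touch a region of both replicates were counted unmerged, as the mean of the replicates. Over all regions of single CCD841 replicates it ranged from 9.59 to 11.6 for H3K18bu and from 18.3 to 21.9 for H4K12bu. The number of mouse genes of the 10 with a region of both replicates was 0 for H3K18bu, 0 for H4K12bu, 1 for H3K18ac and 1 for H4K12ac with q below 0.05, and 0, 0, 1 and 0 with q below 0.01, against 0.151%, 0.576%, 6.17% and 5.35% of all genes. With a pileup of at least 2 it was 0 for H3K18bu (3.31% of all genes), 1 for H4K12bu (7.24%), 3 for H3K18ac (39.7%) and 7 for H4K12ac (52.2%). With the same number of strongest regions it was 1 for H3K18bu (15.8%), 2 for H4K12bu (18.9%), 1 for H3K18ac (23.4%) and 3 for H4K12ac (21.1%). With the gene body only it was 0 for H3K18bu (13.9%), 1 for H4K12bu (23.2%) and 5 for H4K12ac (45.8%), and with 10 kb on each side 2 for H3K18bu (20.5%). In single replicates it was 7 for H3K18bu (51.9% to 57.2% of all genes), 7 to 10 for H4K12bu (60.9% to 73.3%) and 10 for H3K18ac (78.1% to 85.8%).

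Of all mouse genes, Kbu was above Kac at 27 and below at 1684 with q below 0.05, at 6 and 389 with q below 0.01, at 395 and 5054 with a pileup of at least 2, and at 109 and 78 with the same number of strongest regions. The main counts are 2277 and 793, so that most calls were in the other direction with the q and pileup limits, but not with the same number of strongest regions. Of the 10 genes, 2 were below with a pileup of at least 2, against 25.4% of genes, 1 was below in covered bases, against 4.38%, and 1 was above with 10 kb on each side, against 11.7%. Without either replicate 4975 to 5306 mouse genes were above and 2669 to 3786 below, with 0 to 3 of the 10 genes above and 0 to 2 below. In CCD841 cells H4K12bu was above H3K18bu at 5 of the 10 genes with the same number of strongest regions, against 36.3% of genes, and below at 1 with 10 kb on each side, against 21.8%. The longer windows of the 10 genes limit these shares as they do the main ones. Without either CCD841 replicate 5903 to 7682 genes and 0 to 2 of the 10 were below. For the settings without a replicate, in mouse and in CCD841 cells, shares over all genes were not worked out. Their counts of the 10 genes are therefore not read as a result about these genes. The alternatives for this CCD841 comparison, the canonical start and the crossed numbers were chosen after seeing the data. The pileup limit takes away the peaks that the Kac lists hold on some chromosomes only, and the comparison by chromosome was chosen after seeing the data. The cause of these differences was not tested further.

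With the replicate number as a replicate block, 2719 mouse genes were above and 1025 below, with 0 of the 10 in either direction, and 9308 and 4562 CCD841 genes, with 8 and 0 of the 10. Shares over all genes were not worked out here either, so these counts of the 10 are not read further. Same-numbered libraries correlated between -0.03 and 0.05 over genes, except H3K18ac and H4K12ac at -0.49, so the numbers were not shown to pair. With the H4K12ac numbers crossed, 2795 genes were above and 1147 below.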
